A study of Mus musculus with 2 samples.

Results

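The mouse genes Hr and Nudt18 stand next to each other on chromosome 14, on the same strand, and in brown adipocytes they shared a cluster of sites bound by TRα1, a receptor of thyroid hormone. The binding sites (TRBS, TR binding sites) were the peaks of a deposited list from chromatin immunoprecipitation followed by sequencing (ChIP-seq). They were chosen by the measured position of the summit, the base with the highest pileup of DNA fragments: a TRBS belonged to the locus if its summit lay within 30 kb of the transcription start site (TSS) of Hr or of Nudt18. This gave 7 of the 5107 TRBS in the list, or 0.137%. The same 7 TRBS met the limit for both genes, and they are numbered 1 to 7 along the chromosome. The window was then widened to 100 kb on each side of the 2 TSS (chr14:70452212-70677637 of GRCm38, 225.4 kb), which added TRBS 8.

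The chromatin was taken from the brown adipose tissue (BAT) of male C57BL/6J mice, adults of 8 to 12 weeks, in which TRα1 with a GS tag was expressed in brown adipocytes. All mice had been fed propylthiouracil, a drug that stops thyroid hormone synthesis, during 2 weeks and then received thyroid hormone during 24 h. There was 1 ChIP library and 1 input library, the latter being chromatin sequenced without precipitation. The tagged receptor was made in 1 cell type of a mixed tissue, and the driver of its expression and the number of animals are not given in the sources used here. Both libraries shared genotype and treatment, so no comparison between conditions was possible, and no tissue without hormone was analysed here. With no replicate, every value below describes this list, and no test was run.

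TRα1 is a nuclear receptor that binds thyroid hormone (T3) and usually sits on DNA as a heterodimer with the retinoid X receptor (RXR). Its best known response element is the DR4, a direct repeat of the half-site AGGTCA with a spacer of 4 bases, on which RXR takes the first half-site and TR the second. Hr encodes Hairless, a nuclear corepressor with a JmjC domain that binds TR, the vitamin D receptor and ROR receptors. It is known as a T3-responsive gene in brain, and its loss leaves mice without fur. Nudt18 encodes a Nudix hydrolase, an enzyme that clears oxidised nucleotides from the precursor pool.

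A DR4 was searched as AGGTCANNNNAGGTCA along the full peak and on both strands, and up to 2 mismatches were allowed in the 12 half-site bases. TRBS 1, 2, 4, 5 and 6 held 1 element each, or 5 of 7 TRBS, while 32.0% of all TRBS in the list held at least 1. These elements are shown because they are the closest DR4 matches under the receptor at this locus. Each is written 5′ to 3′ on its own strand with 7 flanking bases, the half-sites are in capitals, and positions count from 1 to 16 from the 5′ end of the element (mismatches are given as the DR4 base, the position and the base found):
TRBS 1, chr14:70549619-70549634, minus strand, G2A and T14G: tggattaAAGTCAacccAGGGCAagcgcct
TRBS 2, chr14:70552151-70552166, minus strand, T4G and T14A: cgggtggAGGGCAtctgAGGACAtcccctc
TRBS 4, chr14:70573221-70573236, minus strand, G2C and A6T: atcctggACGTCTctccAGGTCAgagcaca
TRBS 5, chr14:70574309-70574324, plus strand, G2A and C15T: gctgagtAAGTCAcccgAGGTTAcgcggcc
TRBS 6, chr14:70576989-70577004, plus strand, C5T and G13C: tgagtggAGGTTAaagaAGCTCAgaggaag

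All 5 elements had exactly 2 mismatches, and at most 1 mismatch left none. In TRBS 1, 2, 5 and 6, each half-site carried 1 of the 2 mismatches. In TRBS 4 both fell in the first half-site, and the second was an exact AGGTCA. Over the 1638 elements with 2 mismatches in all TRBS, the shares were 60.4% with 1 in each half-site, 18.6% with both in the first and 21% with both in the second. Position 2 was changed in 3 of the 5 elements of the locus (TRBS 1, 4 and 5) and in 9.46% of the elements over all TRBS. Position 14 was changed in TRBS 1 and 2, and in 49.7% over all TRBS. The third spacer base was a T in TRBS 2 alone, against 36.9% over all TRBS.

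The summit lay close to the DR4 in TRBS 2, at 18 bp, and in TRBS 6, at 13 bp. It lay 129 bp away in TRBS 1, 166 bp in TRBS 4 and 215 bp in TRBS 5. Thus 2 of 7 TRBS had a DR4 within 50 bp of the summit, and 23.5% of all TRBS did. The median distance over the 1633 TRBS with a DR4 was 23.0 bp. In the plot of elements around the summits, the elements of TRBS 2 and 6 stand at the summit and those of TRBS 1, 4 and 5 stand off it.

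**Figure D1:**
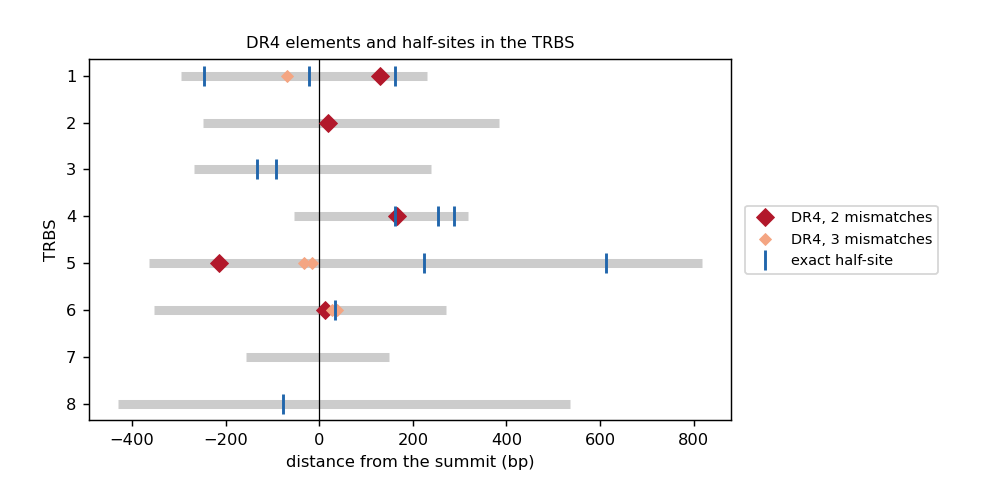
Positions of DR4 elements with 2 or 3 mismatches and of exact half-sites in TRBS 1 to 8, as distance from the summit in bp. Grey bars are the peaks from start to end. TRBS 2 and 6 have a DR4 with 2 mismatches within 18 bp of the summit, and TRBS 7 has no element of any kind.

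The summit of TRBS 6 is shown because it had the most fragments counted in the locus and held 3 half-site-like sequences in a row. The DR4 was followed by an exact AGGTCA after a spacer of 9 bases, 33 bp from the summit. The stretch covers chr14:70576977-70577031 on the plus strand and has these 3 sequences in capitals:
TRBS 6, summit: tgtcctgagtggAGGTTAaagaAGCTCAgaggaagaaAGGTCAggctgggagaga

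At the summits of TRBS 1 and TRBS 5 there was no DR4 with 2 mismatches, so what stood there instead is shown. TRBS 1 had an exact AGGTCA 23 bp from the summit, given within chr14:70549460-70549509 on the plus strand. TRBS 5 had a pair of adjoining elements with 3 mismatches each, both on the minus strand and 16 and 32 bp from the summit. The first, at chr14:70574508-70574523, carried A1G, C5G and T14A, and the second, at chr14:70574492-70574507, carried T4C, C5T and T14C:
TRBS 1, summit: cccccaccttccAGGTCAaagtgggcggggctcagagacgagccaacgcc
TRBS 5, element at 16 bp: tggttcaGGGTGAcgtgAGGACAaggctat
TRBS 5, element at 32 bp: gaggacaAGGCTAtagaAGGCCAagtgtta

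The genome holds 2363075 elements with at most 3 mismatches, so these are given as letters only. TRBS 3 and TRBS 7 held no DR4 even at 3 mismatches. TRBS 8, outside the 30 kb limit, held none either.

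Exact half-sites, AGGTCA or GGGTCA, were present in 5 of 7 TRBS, against 72.5% of all TRBS. There were 11 of them: 3 in TRBS 1, 2 in TRBS 3, 3 in TRBS 4, 2 in TRBS 5 and 1 in TRBS 6. TRBS 2 and 7 held none. The 11 half-sites in 4152 bp of peak made 2.65 per kb, the whole window had 1.51 per kb, and all TRBS had 2.95 per kb. No TRBS of the locus held a pair of exact half-sites in direct, inverted or everted orientation with a spacer of 0 to 10 bases, while 7.50% of all TRBS did. The closest exact half-sites were 30 bases apart in TRBS 4, 34 in TRBS 3, 179 in TRBS 1 and 384 in TRBS 5, each time on the same strand. If T was also allowed at the third base of the half-site, TRBS 1 gained 1 pair, an inverted repeat with a spacer of 1 base at chr14:70549365-70549377:
TRBS 1, inverted pair: gagccacAGTTCAgTGAACTcttcctg

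The strength of each TRBS was read as the number of ChIP fragments over its summit. This number was recovered from the deposited fold and p-value, and it was the only whole number that fitted for each of the 7. Intervals are 95% exact Poisson intervals and cover counting error alone. TRBS 6 had 59 fragments (44.9 to 76.1), TRBS 1 had 51 (38.0 to 67.1) and TRBS 5 had 44 (32.0 to 59.1). TRBS 3 had 41 fragments (29.4 to 55.6) and TRBS 2 had 37 (26.1 to 51.0). TRBS 7 had 16 (9.15 to 26.0) and TRBS 4 had 8 (3.45 to 15.8).

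The 7 TRBS thus fell into 5 high and 2 low ones. Of the 21 pairs of TRBS, 11 had overlapping intervals: the 10 pairs among the high ones, and TRBS 4 with TRBS 7. The other 10 pairs, each a high and a low TRBS, did not overlap, although the upper limit of TRBS 7 (26.0) almost met the lower limit of TRBS 2 (26.1). The high and low ones were parted by these same counts, so the lack of overlap describes that choice. The share of pairs without overlap over all TRBS was not worked out. Overlap of separate intervals does not compare 2 counts directly, so the order within the high ones was not tested. TRBS 8 had 15 fragments (8.40 to 24.7), at the level of the low ones.

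**Figure D2:**
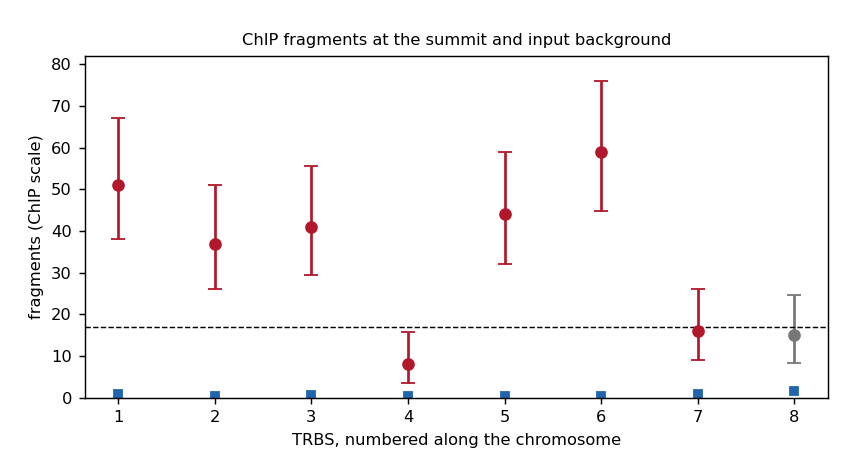
ChIP fragments at the summit of TRBS 1 to 8 (circles, with 95% Poisson intervals) and the input background on the same scale (blue squares). The dashed line is the median of all TRBS, 17.0 fragments; TRBS 1, 2, 3, 5 and 6 lie above it and TRBS 4, 7 and 8 below it.

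The input background at the 7 summits was under 1 fragment and differed by up to 2.12 times. On the scale of the ChIP library it was 0.430 fragments at TRBS 2 and 4, 0.504 at TRBS 5 and 6, 0.609 at TRBS 3 and 0.913 at TRBS 1 and 7. The lowest background in the list was 0.430, the median 0.672 and the upper quartile 0.924. At TRBS 8 the background was 1.52 fragments, or 3.54 times the lowest.

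Fold enrichment over input parted the same 5 TRBS from TRBS 4 and 7. The fragments were solved from this fold and the p-value, so fold is not an independent measure of the same split. It was 39.9 at TRBS 6, 29.9 at TRBS 5, 27.2 at TRBS 1, 26.6 at TRBS 2 and 26.1 at TRBS 3. It was 8.89 at TRBS 7, 6.34 at TRBS 8 and 6.29 at TRBS 4. The high 5 were among the stronger TRBS of the list: between 91.2% of all TRBS for TRBS 3 and 97.1% for TRBS 6 had a lower fold. TRBS 7 stood near the middle, with 43.3% of all TRBS lower, and TRBS 4 near the bottom, with 18.4% lower. The median fold was 26.6 over the 7 TRBS and 9.83 over all TRBS.

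The score, which the authors' peak caller derives from the q-value, ran from 56 for TRBS 4 to 951 for TRBS 6. The study kept peaks with a score of at least 60. TRBS 4 was the 1 TRBS of the locus under this limit, so 6 of 7 passed it, against 82.4% of all TRBS. The p-values behind the scores come from a Poisson model of these 2 libraries and do not compare conditions.

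**Figure D3:**
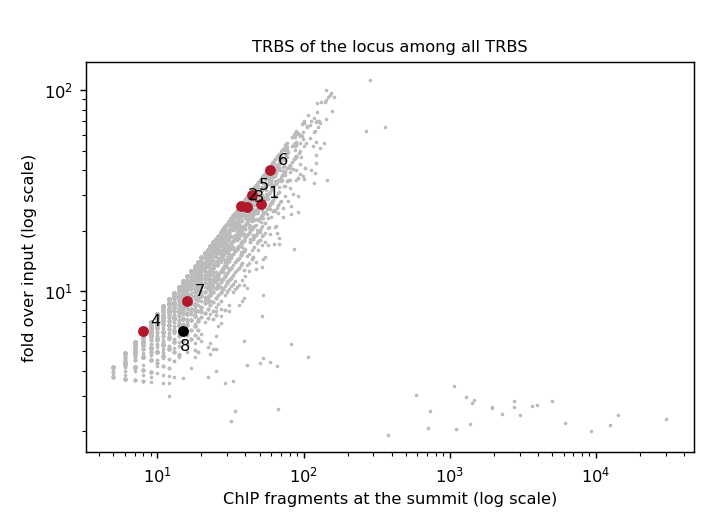
Fold over input against ChIP fragments at the summit for all TRBS of the list (grey points), both on log scales. Red points are TRBS 1 to 7 and the black point is TRBS 8. TRBS 1, 2, 3, 5 and 6 lie in the upper part of the cloud, from 37 to 59 fragments, and TRBS 4, 7 and 8 in its lower part, from 8 to 16.

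The 7 summits spanned 28197 bp and lay in 2 groups, at the 5′ end of Hr and from the 3′ end of Hr to the start of Nudt18. The first group was TRBS 1, 2 and 3, whose summits stood 2715 bp upstream, 72 bp upstream and 2030 bp downstream of the Hr TSS (chr14:70552212). The second was TRBS 4, 5, 6 and 7, which stood 20850, 22319, 24771 and 25482 bp downstream of it. Measured from the Nudt18 TSS (chr14:70577637), the second group lay 4575, 3106 and 654 bp upstream and 57 bp downstream. The longest step between neighbours, 18820 bp, ran from TRBS 3 to TRBS 4 across most of the Hr gene, and the shortest, 711 bp, from TRBS 6 to TRBS 7. Of the 6 steps, 5 were under 3 kb. The rule picks TRBS that lie close together, so short steps are part of the choice.

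The nearest TRBS before TRBS 1 lay 167691 bp away, which is longer than 57.7% of the 5086 steps between neighbouring TRBS in the list. TRBS 8 came 40961 bp after TRBS 7, a step shorter than the median of 105895 bp. After TRBS 8 no TRBS followed for 2.59 Mb, and 95.5% of all steps were shorter. That stretch holds 10 protein-coding TSS. By the nearer of the 2 TSS, the outermost member was TRBS 4, 4575 bp from the Nudt18 TSS with 8 fragments, and the first TRBS outside the limit was TRBS 8, at 41018 bp with 15 fragments.

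**Figure D4:**
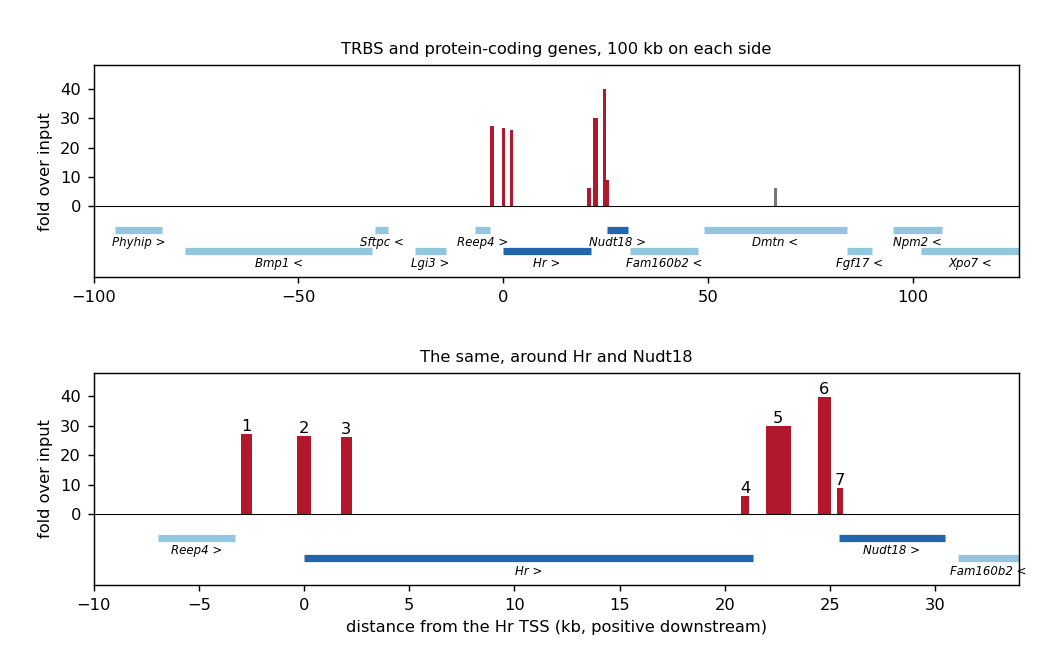
Map of the TRBS (bars, height is fold over input) and the protein-coding genes (blue lines, Hr and Nudt18 in dark blue, > or < for the strand) by distance from the Hr TSS in kb. The upper panel shows 100 kb on each side, with bars drawn at least 0.8 kb wide to be visible, and the lower panel shows the 7 numbered TRBS at their true width. TRBS 1 to 3 surround the Hr TSS, TRBS 4 to 7 run from the last exon of Hr to the first exon of Nudt18, and TRBS 8 (grey) is alone in Dmtn.

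Promoters held 3 of the 7 summits, against 7.24% of all TRBS, where a promoter began 1000 bp before a TSS and ended 100 bp after it. The rule picks TRBS near the TSS of Hr or Nudt18, so a higher share in promoters is part of the choice. TRBS 2 (chr14:70551891-70552524) was in the Hr promoter. TRBS 6 (chr14:70576629-70577253) and TRBS 7 (chr14:70577538-70577844) were both in the Nudt18 promoter, TRBS 7 with its summit in the first exon. TRBS 1 (chr14:70549202-70549727) was intergenic, between Reep4 and Hr. TRBS 5 (chr14:70574168-70575349) was intergenic, between Hr and Nudt18. TRBS 4 (chr14:70573008-70573379) lay in the 3′ UTR of Hr, in exon 20 of transcript Hr-201. None of the 7 summits was in an intron by this order of priority.

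TRBS 3 (chr14:70553975-70554480) needs more detail, because Hr has several annotated starts. Its summit fell in the noncoding first exon of transcript Hr-203 and in intron 1 of Hr-201, so it was counted as 5′ UTR. The start of Hr-201, a coding transcript, and also the RefSeq start of the gene (chr14:70554056), lay 186 bp upstream of this summit. A second RefSeq start, at chr14:70554234, lay 8 bp from it. The outermost start at chr14:70552212, from which distances are given, belongs to Hr-202, a transcript annotated without a coding sequence. So each of the starts of Hr-202 and Hr-201 was covered by a TRBS of its own, with 37 and 41 fragments. The starts of Hr-203 and Hr-205 were covered by none.

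At Nudt18 the start of transcript Nudt18-201 was inside TRBS 7, which also covered a RefSeq start at chr14:70577824. The starts farther downstream, of Nudt18-202 and Nudt18-203, were covered by none. The high TRBS of this promoter, TRBS 6, ended before the start and covered no annotated start. The TRBS over the RefSeq starts of the genes, TRBS 3 and TRBS 7, were the 2 TRBS of the locus without a DR4. For comparison, 3.02% of 32851 RefSeq mouse promoters of 300 bp, a set without Hr and Nudt18, held a DR4 with at most 2 mismatches.

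The TRBS differed in width and base composition. TRBS 5 was the widest at 1182 bp, wider than 98.7% of all TRBS, and TRBS 7 the narrowest at 307 bp, against a median of 526 bp in the locus and 424 bp in the list. GC content was highest in TRBS 3 (71.5%), TRBS 2 (65.3%) and TRBS 7 (62.2%), the 3 TRBS that covered an annotated start of Hr or Nudt18. It was 59.4% in TRBS 4, 55.7% in TRBS 6, 53.4% in TRBS 1 and 47.0% in TRBS 5. The median of all TRBS was 51.1%, with quartiles of 46.8% and 55.4%. Repeats made up 4.74% to 18.5% of each TRBS of the locus.

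Motifs of 7 other kinds were searched. The DR1 motif, a direct repeat with 1 spacer base that binds PPAR with RXR, was searched as AGGTCANAGGTCA with at most 2 mismatches. It was present in TRBS 4 and 5, or 2 of 7, and in 14.9% of all TRBS. It lay 158 bp from the summit in TRBS 4 and 611 bp in TRBS 5, and in TRBS 4 it overlapped the DR4. The AP-1 motif, TGANTCA, was in 1 of the 7, TRBS 5, and in 14.6% of all TRBS. TRBS 8 held both motifs.

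The others had no match in any of the 7 TRBS. These were the EBF motif (TCCCNNGGGA, in 4.54% of all TRBS), the NF1 motif (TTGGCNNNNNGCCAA with at most 1 mismatch, 2.94%) and the C/EBP motif (TTGCGCAA with at most 1 mismatch, 12.0%). The SP/KLF motif (GGGGCGGGG, 5.46%) and the E-box CACGTG (8.99%) had none either. All were searched on both strands, and shares this low leave few matches to be seen in 7 regions.

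The window of 225.4 kb held more candidate sequences than the receptor covered. There were 36 DR4 elements with at most 2 mismatches, or 0.160 per kb, against 0.110 per kb over the genome. Of these, 5 lay in a TRBS, or 13.9%, and genome-wide 2063 of 290078 did, or 0.711%. The window was chosen for its TRBS, so the higher share describes that choice. No perfect DR4 was found in the window. The elements closest to the DR4, with 1 mismatch each, are shown because neither was in a TRBS. The first, intergenic, lay 26927 bp upstream of the Hr TSS, and the second, in Fam160b2, lay 10014 bp from the summit of TRBS 7. Over the genome, 425 of 22256 elements with at most 1 mismatch lay in a TRBS, or 1.91%:
chr14:70525285-70525300, plus strand, T14A: cccttggAGGTCAgaaaAGGACAtcagatc
chr14:70587708-70587723, plus strand, T4G: tgtcagcAGGGCAgtggAGGTCAggatgct

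The first of them shares its second half-site, AGGACA, with the element of TRBS 2. The closest matches to the DR4 in the window therefore lay outside the TRBS, and the TRBS held elements with more mismatches.

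The window also held 12 pairs of exact half-sites with spacers of 0 to 10 bases, and none of them lay in a TRBS. The TRBS within 30 kb made up only 4152 bp of the 225426 bp of the window. The share of such pairs in a TRBS over the genome was not counted, so the absence is a description only. They comprised 2 DR0, 1 DR1, 2 DR5, 1 DR6 and 1 DR10 (direct repeats named by their spacer), 1 IR2, 1 IR8 and 1 IR9 (inverted repeats), and 1 ER5 and 1 ER7 (everted repeats). No exact pair was a DR4. Both DR0 and the DR6 came from 3 consecutive half-sites in Bmp1. Those shown are this run, the DR1 in Bmp1, the intergenic IR2 20653 bp from the summit of TRBS 1, and the DR5 in an intron of Hr, which came closest to a TRBS, 1995 bp from the summit of TRBS 4. All are on the plus strand as written, and in the run of 3 the middle half-site is in lower case:
Bmp1, DR6, chr14:70515713-70515730: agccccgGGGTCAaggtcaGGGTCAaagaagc
Bmp1, DR1, chr14:70491919-70491931: acggggaTGACCTgTGACCTttgctag
intergenic, IR2, chr14:70528844-70528857: cccttggGGGTCAaaTGACCCtttcaca
Hr, DR5, chr14:70571067-70571083: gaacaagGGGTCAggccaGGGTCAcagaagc

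The cluster was within reach of neighbouring genes too. A distance of 30 kb is the only link between a TRBS and a gene here, and it does not say which gene a TRBS acts on. Of the 11 protein-coding genes with a TSS in the window, 9 had a TRBS within 30 kb, and 16.7% of the 21938 protein-coding genes of the genome did. The window was drawn around the cluster, so the count in it follows from that choice. Reep4, which encodes an endoplasmic reticulum protein, had 5 (TRBS 1 to 5, the nearest 4246 bp downstream of its TSS), and Fam160b2 had 5 (TRBS 4 to 8). Lgi3 had 3 and the surfactant gene Sftpc had 2. Bmp1, which encodes a metalloproteinase that processes procollagen, had 1, at 29263 bp upstream. Dmtn, for an actin-binding protein, and Fgf17, for a fibroblast growth factor, had TRBS 8 alone, 17393 and 23613 bp downstream of their TSS. Phyhip and Npm2 had none. TRBS 8 (chr14:70618225-70619190) lay in intron 1 of the Dmtn transcript Dmtn-201.

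Few genes of the genome had as many TRBS as Hr and Nudt18. At least 7 TRBS within 30 kb were found for 16 genes, or 0.0729%, and 9 of these owed them to TRBS with an input background over 100 fragments. Without such TRBS, 5 genes had 7 and 2 genes had 8. They made 3 loci: Hr with Nudt18, Tob2 on chromosome 15, and Cirbp, Midn, Atp5d and Cbarp on chromosome 10. Since Hr and Nudt18 were chosen for this number, it is a description. Their heights and sequences are given side by side, without a test. The median TRBS had 41.0 fragments at Hr and Nudt18, 26.0 at Tob2 and 14 at each of the 4 genes on chromosome 10. A DR4 was present in 5 of 7 TRBS at Hr and Nudt18, in 1 of 7 at Tob2 in 3 of 7 at Cirbp and Midn, and in 3 of 8 at Atp5d and Cbarp. An exact pair of half-sites was found in no TRBS at Hr and Nudt18, 1 at Tob2, 2 at Cirbp and Midn, and 3 at Atp5d and Cbarp.

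**Figure D5:**
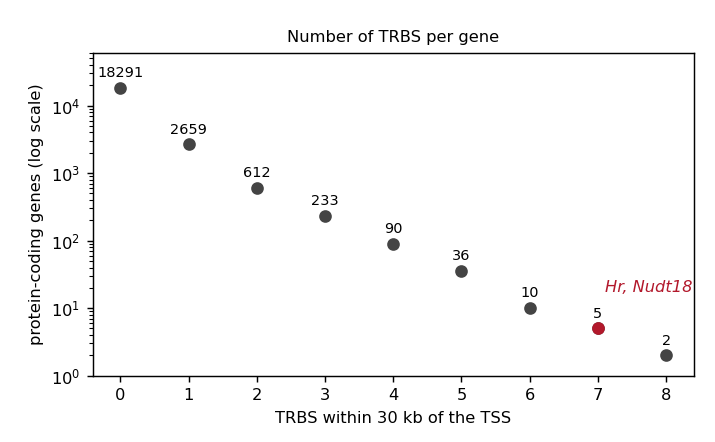
Number of protein-coding genes (log scale) by how many TRBS lay within 30 kb of their TSS, counting TRBS with an input background of at most 100 fragments. The point for 7 TRBS (red) holds 5 genes, Hr and Nudt18 among them, and 2 genes had 8.

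High TRBS were gathered at few other genes. The upper quartile of all TRBS began at 27.0 fragments, and 5 genes had at least 5 such TRBS within 30 kb, a count chosen after the values of Hr were seen. These were Hr and Nudt18, the brown fat uncoupling protein gene Ucp1, and the neighbours Cebpb and Tmem189, of which Cebpb encodes a C/EBP transcription factor. The fragments at the summits of all low-background TRBS within 30 kb summed to 256 for Hr and Nudt18, 354 for Cebpb and Tmem189, and 778 for Ucp1. By this sum Hr ranked 8 among the 3647 genes with a TRBS of low background.

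Besides Nudt18, 5 of the 19 Nudix hydrolase genes reported here had a TRBS within 30 kb, each with 1, beside 16.7% of all protein-coding genes. Nudt17, Nudt6 and Nudt7 had 1 each with 49, 47 and 33 fragments, at 19018 bp upstream, 984 bp downstream and 3878 bp downstream of the TSS. Nudt22 had 1 with 21 fragments, which was the only one besides those of Nudt18 with a DR4. Nudt16 had 1 with 9 fragments.

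Of the 12 genes reported here for demethylases of the Hairless family, nuclear receptors bound by Hairless and corepressor proteins, 4 had a TRBS (33.3%), beside the same 16.7% of all genes. Among the family, Jmjd1c had 1 TRBS with 44 fragments, while Kdm3a and Kdm3b had none. Among the receptors, Thrb, which encodes TRβ, had 1 with 123 fragments at 27186 bp upstream. Thra, which encodes TRα1 itself, had 3, the highest with 11 fragments. Vdr, Rora and Rorb had none. Among the corepressors, Hdac5 had 1 with 7. Ncor1, Hdac1 and Hdac3 had none.

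Of 8 genes listed here for brown adipocytes, not all of them particular to this cell type, 6 had a TRBS within 30 kb. Elovl3 and Dio2 were the exceptions, and 16.7% of all protein-coding genes had one. The only TRBS of Adipoq had a score under 60. Of 7 marker genes of immune, endothelial, stromal, muscle and pigment cells, 0 had one, too few genes to set apart from that share. A further list of 7 genes was drawn up for this work with the study's text in view, Trp53inp2 being read for the symbol Trp53ind. All had at least 1 TRBS, from 1 at Desi1, Trp53inp2 and Thrb to 3 at Stat5a and Thra. The study set its distance limit so that known target genes such as Klf9 and Hr were kept. It also showed the region of Hcn2 as an example of receptor binding. The same limit was used here, so a TRBS at all 7 genes follows in part from the choice of genes and limit. None of these genes reached the 7 TRBS of Hr and Nudt18. Binding does not measure expression, and RNA was not analysed here.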

How the data were processed

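The authors aligned paired-end reads to GRCm38 (mm10) and called peaks by comparing ChIP with input. The submitters' processing notes name Bowtie2 2.3.2.2 and MACS2 2.1.1.20160309.6. The deposited score is 10 times the −log10 q-value, rounded down. The deposited fold is the ratio of ChIP pileup to local input background after a pseudocount of 1. The deposited −log10 values of p and q come from a Poisson model. All 5107 peaks were used, 897 of them with a score under 60. Depth is known only through the peaks: fragments and background at the summit were solved from fold and p-value within 0.0005 of the deposited −log10 p (5090 peaks, 99.7%). Fragments without molecular identifiers may be duplicates, which the intervals do not cover.

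Genes came from GENCODE M21, with 1 TSS per gene, its outermost annotated start, and sequence from the RefSeq GRCm38 assembly. Regions had the priority promoter, 5′ UTR, 3′ UTR, coding exon, intron, intergenic. Distances to elements are from the summit to the eighth base of the DR4 along the plus strand. Python 3.11.15, numpy 2.4.6 and scipy 1.17.1 were used, and the searches and the recovery were tested on simulated data. The genes named were Hr, Nudt18, all protein-coding genes with a TSS in the window, genes with at least as many low-background TRBS as Hr, and lists described by counts. Members, lists and rules were chosen with earlier results of these data known. Genes with 5 high TRBS were chosen after their values were seen. Some genes of the Nudix and Hairless lists are not reported here, whatever their values, and the counts leave them out, so shares over the complete lists may differ.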

Additional observations from a re-analysis of the deposited data

How the results depend on the processing

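Of 49 alternative values, 42 stayed within the limits set and 0 reversed. The other 7 changed as follows. With a limit of 10 kb, Hr had 3 TRBS and Nudt18 had 4, which together are the same 7. With at most 1 mismatch, 0 of the 7 TRBS held a DR4 and 0 DR4 elements of the window lay in a TRBS, while at most 3 mismatches put 10 there. Within 100 bp of the summit, 2 TRBS held a DR4. With AGTTCA and GGTTCA also taken as half-sites, 1 TRBS held a pair. A score of at least 60 left 6 TRBS, 4 with a DR4, and merging peaks closer than 1000 bp left 5. The RefSeq starts, chosen after seeing the data, kept 7 for both genes. No paired analysis was possible because there was 1 library of each kind. Depth limits the ranking: with 8 to 59 fragments at a summit, the intervals of the 5 high TRBS overlapped, and their order was not tested.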
